A study of Homo sapiens with 7 samples.

Results

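The miR-26 and miR-30 families were followed in small extracellular vesicles (sEVs) released by HepG2, an established line of human hepatocellular carcinoma, through the 5p arms hsa-miR-26a-5p, hsa-miR-26b-5p, hsa-miR-30a-5p, hsa-miR-30b-5p, hsa-miR-30c-5p, hsa-miR-30d-5p and hsa-miR-30e-5p, written below without the species prefix. These 7 miRNAs were taken by family name out of the 2656 mature miRNAs counted, with earlier results of these data known. The cells carried a lentiviral, doxycycline-inducible short hairpin RNA, either scrambled (shCTR, 3 libraries) or directed against SYNCRIP (shSYNCRIP, 4 libraries), after puromycin selection, and the vesicles were pelleted by differential centrifugation from medium conditioned for 72 h and containing vesicle-depleted serum. SYNCRIP is an RNA-binding protein that loads miRNAs holding the hEXO motif into sEVs, and the comparison asked which miRNAs of the vesicles depend on it. The sample titles name HepG2 for every library, whereas a cell line field counts upward from HepG2 to HepG8. The SYNCRIP transcript is outside this miRNA table, so the silencing itself was not measured here.

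A miRNA guides an Argonaute protein to messenger RNAs that pair with its seed, bases 2 to 8, and lowers their translation or stability. The miR-26 family lies in introns of the CTDSP phosphatase genes and is known to repress EZH2, the methyltransferase of Polycomb complex PRC2. The miR-30 family is known to repress SNAI1, a transcription factor of the epithelial-to-mesenchymal transition, and both families are abundant in liver and regarded as tumour-restraining there.

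The sequences below show what members of a family share and where they part, since the hEXO motif depends on bases outside the seed. They are the human RefSeq sequences (GRCh38.p14), which matched 5 of the 7 members, given 5′ to 3′ with the seed in capitals. miR-30b-5p and miR-30d-5p are named only.
miR-26a-5p: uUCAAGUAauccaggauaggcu
miR-26b-5p: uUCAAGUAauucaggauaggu
miR-30a-5p: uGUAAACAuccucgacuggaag
miR-30c-5p: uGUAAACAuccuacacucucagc
miR-30e-5p: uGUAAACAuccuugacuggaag

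The miR-26 sequences shared their seed and differed by C11U and C21U, counted from the 5′ end with the base of miR-26a-5p first, and miR-26b-5p was 1 base shorter. The first of these differences fell within the only hEXO match of the pair. hEXO was searched on the miRNA strand after the first 7 bases, as 3 bases that are not C, 1 that is not U, then A or U, then G or C. miR-26b-5p held AUUCAG at position 9, and miR-26a-5p, used by the study as a control without the motif, held no match. In the miR-30 family, miR-30a-5p held UGGAAG at position 17, miR-30e-5p held 2 overlapping matches beginning with UGACUG at position 13, and miR-30c-5p held none. miR-30e-5p differed from miR-30a-5p by C13U alone, whereas miR-30c-5p differed from miR-30a-5p at 5 positions. Such a match is common and only describes the sequence, since 63.6% of 2370 human mature miRNAs held at least 1, with 55.0% of those of 21 bases, 66.9% of those of 22 and 74.0% of those of 23. The DRACH motif of N6-methyladenosine sites (any base but C, then A or G, then AC, then any base but G) began at position 4, inside the seed, in miR-30a-5p, miR-30c-5p and miR-30e-5p, and miR-30e-5p held a second match. DRACH had no match in either miR-26 sequence and occurred in 28.2% of the mature miRNAs.

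The miR-26 genes lay in introns of their hosts, on the hosts' strand. miR-26a-5p has 2 genomic copies, MIR26A1 in an intron of CTDSPL (chromosome 3, 37969413 to 37969434, plus strand) and MIR26A2 in an intron of CTDSP2 (chromosome 12, 57824658 to 57824679, minus strand), and counts of the mature miRNA cannot be assigned to either. miR-26b-5p is encoded in an intron of CTDSP1 (chromosome 2, 218402657 to 218402677, plus strand). In the miR-30 family, miR-30e-5p (chromosome 1, 40754371 to 40754392) and a first copy of miR-30c-5p (40757300 to 40757322) share introns of NFYC on the plus strand. miR-30a-5p (chromosome 6, 71403595 to 71403616) and the second copy of miR-30c-5p (71377003 to 71377025) lie on the minus strand in introns of the long non-coding genes LINC00472 and AL136164.2. Mature positions are those of GRCh38.p14 and host genes those of GENCODE release 29.

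The libraries held between 29863 and 388226 miRNA counts, with shSYNCRIP 2 the shallowest, and between 100 and 275 miRNAs were detected in each, with shSYNCRIP 4 at the lowest number. With 0 counts of a miRNA, its share could still be as high as 0.000773% at the greatest depth and 0.0100% at the lowest. These limits and the intervals below cover counting error only, because amplified reads are not independent molecules. The hepatocyte marker miR-122-5p was detected in all 7 libraries. miR-194-5p (up to 1120 counts) and miR-148a-3p (up to 298 counts) were each detected in 6, with 0 counts in shSYNCRIP 4. By contrast, miR-192-5p reached at most 1 count and miR-885-5p had 0 counts throughout. The 5 hepatocyte markers together held 0.528% to 1.03% of the scaled counts in shCTR and 0.313% to 1.53% in shSYNCRIP. The 8 blood-cell markers held 11% to 20.5% and 9.53% to 16.3%, a larger share than that of the hepatocyte markers in these libraries of a liver cancer cell line. Most of the blood-cell share in every library was miR-486-5p. In CPM, the scaled unit defined below, it held 112200 of 162600 in shSYNCRIP 3 and 98230 of 101900 in shSYNCRIP 4. Only 2 of the 8 were detected in shSYNCRIP 4, and miR-144-3p and miR-144-5p were detected in shSYNCRIP 3 alone. The part of blood-derived or serum-derived RNA in the members' values was not tested.

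The family level differed widely between miR-26 and miR-30 in these vesicles. Over all libraries the miR-26 pair summed to 22988 counts and the 5 miR-30 members to 909, a 25.3-fold difference in pooled raw counts. The gap varied widely between libraries, from 3122 against 504 counts in shCTR 2 to 8720 against 24 in shCTR 3. Most of the miR-30 counts came from shCTR 2 and shSYNCRIP 4, with 504 and 209. Reads of small RNAs span the whole molecule, so no length correction was applied. The efficiency with which each miRNA is ligated and amplified can also set such a difference between miRNAs and was not tested. In shCTR the miR-26 pair took 2.03%, 2.13% and 2.25% of all miRNA counts, and in shSYNCRIP 1.99%, 0.784%, 1.5% and 1.87%. Every shSYNCRIP share was below the lowest shCTR share, but narrowly so for shSYNCRIP 1. Its 95% Clopper-Pearson interval of 1.92% to 2.06% overlapped that of shCTR 1, 1.94% to 2.11%. How many of all miRNAs separate in this way on raw shares was not counted. The low share in shSYNCRIP 2 had a 95% Clopper-Pearson interval of 0.687% to 0.890%. Levels were scaled by TMM, which sets each library by the trimmed mean of its log ratios to a reference library, and are given as CPM, counts per 1000000 scaled counts of the tested miRNAs. On this scale the summed miR-26 level overlapped between the groups, at 14.41 ± 0.06 (log2 CPM, SD, n = 3) in shCTR and 13.90 ± 0.63 (n = 4) in shSYNCRIP, because shSYNCRIP 4 with 14.39 exceeded shCTR 1 with 14.35. The summed miR-30 level was 8.67 ± 2.84 in shCTR and 8.94 ± 2.05 in shSYNCRIP, a difference of 0.27. Its sign rested on single libraries, since it was 1.57 without shCTR 2, -0.94 without shCTR 3 and -0.68 without shSYNCRIP 4. The miR-26 difference of -0.51 kept its sign, at -0.96 without shSYNCRIP 4 and -0.81 without shCTR 2.

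**Figure D1:**
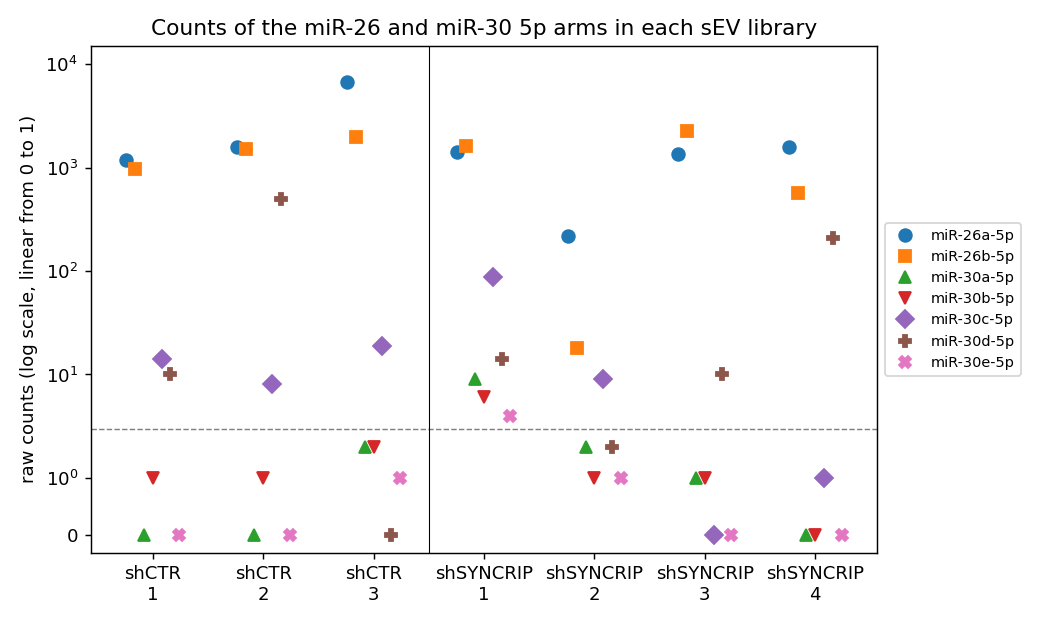
Raw counts of the 7 members in each of the 3 shCTR and 4 shSYNCRIP libraries, on a log axis that is linear between 0 and 1. Each point is a member in a library, the dashed line marks 3 counts, and both miR-26 members lie above all miR-30 members in every library, closest in shSYNCRIP 2, where miR-26b-5p had 18 counts and miR-30c-5p had 9.

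miR-26a-5p was the most counted member, with 1194, 1594 and 6740 counts in the shCTR libraries and 1403, 216, 1354 and 1587 in the shSYNCRIP libraries. After scaling these were 11600, 11090 and 17520 CPM against 8505, 7428, 6553 and 15880 CPM. Of the shSYNCRIP libraries, 3 lay below every shCTR library, and shSYNCRIP 4 lay above 2 of the shCTR libraries, so the groups overlapped. The means were 13400 ± 3572 CPM (SD, n = 3) and 9592 ± 4269 CPM (n = 4). In limma-voom, a linear model of precision-weighted log2 CPM fitted over all 117 miRNAs that passed the filter on low counts and with p-values adjusted over them by Benjamini-Hochberg, the log2 fold change of shSYNCRIP against shCTR was -0.75 (SE 0.69, 95% CI -2.13 to 0.63, adjusted p = 0.767). The quasi-likelihood test of edgeR gave -0.48 (adjusted p = 0.983) and DESeq2 gave -0.53 (adjusted p = 0.983). The miR-26a-5p interval therefore holds 0 as well as falls larger than the one estimated, and these libraries do not show that miR-26a-5p is unaffected. The study reported no change of its controls without the motif from RT-qPCR, normalised to an added spike-in. That is a different measure from the shares compared here, and it was not analysed here. Without shSYNCRIP 4, the limma-voom value of miR-26a-5p was -1.32 with a nominal p of 0.0456 (adjusted p = 0.456), and without shCTR 2 it was also -1.32, with a nominal p of 0.0927 (adjusted p = 0.695).

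miR-26b-5p, the motif-holding partner of miR-26a-5p, had 961, 1528 and 1980 counts in the controls against 1599, 18, 2251 and 563 after SYNCRIP silencing. On the CPM scale these were 9334, 10630 and 5146 against 9693, 619, 10890 and 5634. The shSYNCRIP values spanned the whole shCTR range, with shSYNCRIP 3 above every control and shSYNCRIP 2 far below every control. Its means were 8371 ± 2868 CPM (SD, n = 3) and 6710 ± 4642 CPM (n = 4). The limma-voom log2 fold change was 0.21 (SE 0.96, 95% CI -1.71 to 2.13, adjusted p = 0.992). Its sign depended on the test, with -0.32 in the quasi-likelihood test of edgeR and -0.40 in DESeq2 (adjusted p = 0.983 in both), so no direction is given for miR-26b-5p.

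**Figure D2:**
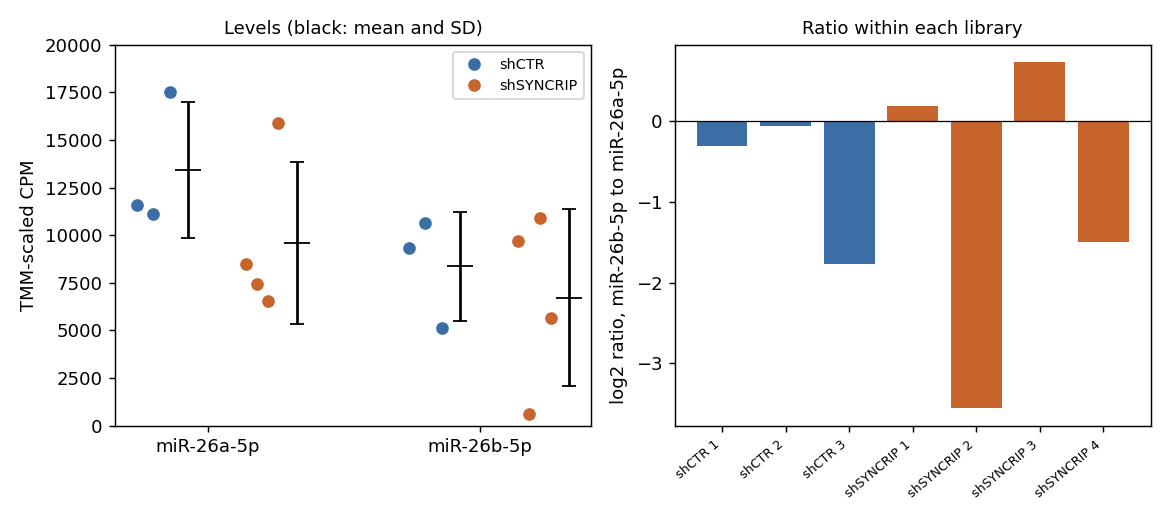
Left, levels of miR-26a-5p and miR-26b-5p in TMM-scaled CPM, with a point per library and the mean and SD in black beside each group. Right, the log2 ratio of miR-26b-5p to miR-26a-5p in each library, which runs from -3.56 in shSYNCRIP 2 to 0.73 in shSYNCRIP 3, both of them shSYNCRIP libraries.

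The ratio within a library compares the miR-26 members without any scaling between libraries. For every 100 counts of miR-26a-5p there were 80.5, 95.9 and 29.4 counts of miR-26b-5p in shCTR and 114, 8.33, 166 and 35.5 in shSYNCRIP. The extremes of the ratio were thus both in shSYNCRIP, and the order of abundance of the pair was turned in shSYNCRIP 1 and 3 alone. The mean log2 ratio was -0.71 ± 0.92 (SD, n = 3) in shCTR and -1.03 ± 1.93 (n = 4) in shSYNCRIP, a difference of -0.32. A two-sided exact permutation test over the 7 libraries gave p = 0.857 (0.943 after Benjamini-Hochberg adjustment over 6 ratios), and the smallest p this design allows is 0.0286. Without shSYNCRIP 2 the difference of the ratio was 0.52 (exact permutation p = 0.5) and without shCTR 2 it was 0.006 (exact permutation p = 1), so its sign rests on single libraries.

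Both miR-26 members varied less within groups than the median tested miRNA, and miR-26a-5p varied less than miR-26b-5p. The SD of log2 CPM within groups was 0.495 for miR-26a-5p, 7th from the lowest of the 117 miRNAs tested, and 1.52 for miR-26b-5p, which ranked 37th. The values of miR-30c-5p and miR-30d-5p were 2.15 and 3.18, beside a median of 2.47 over all tested miRNAs. By abundance, miR-26a-5p ranked between 13 and 41 among all miRNAs of a library and miR-26b-5p between 21 and 69. Spread was not compared among miRNAs of like abundance, so the part of count level in these ranks of spread was not tested. The miR-26 members did not rise and fall together, with Pearson's r of 0.164 and Spearman's rho of -0.429 over 7 libraries, as a description of libraries that share their depth and scaling.

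miR-30 counts were sparse, and 22 of the 35 values (5 members in 7 libraries) were 3 counts or fewer, 10 of them 0. Only 2 of the values reached 100, both of miR-30d-5p. miR-30c-5p and miR-30d-5p passed the filter on low counts, and miR-30a-5p, miR-30b-5p and miR-30e-5p did not and have no fold change.

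The shCTR libraries gave 10, 495 and 0 counts of miR-30d-5p and the shSYNCRIP libraries gave 14, 2, 10 and 208. A single library of each group, shCTR 2 and shSYNCRIP 4, held nearly all of its 739 counts, and the groups overlapped. On the CPM scale its means were 1181 ± 1961 (SD, n = 3) and 570.9 ± 1007 (n = 4), each SD above its mean. The limma-voom log2 fold change of miR-30d-5p was 0.74 (95% CI -4.60 to 6.09, adjusted p = 0.992), against -1.05 in the quasi-likelihood test of edgeR (adjusted p = 0.983) and -0.75 in DESeq2, which gave no adjusted p. Leaving out shCTR 2 moved the limma-voom value to 3.56, leaving out shCTR 3 moved it to -1.95 and leaving out shSYNCRIP 4 moved it to -0.57.

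miR-30c-5p, the miR-30 member without hEXO among those printed above, was counted 14, 8 and 19 times in shCTR and 87, 9, 0 and 1 times in shSYNCRIP. On the CPM scale these were 136, 55.7 and 49.4 against 527.4, 309.5, 0 and 10.01, so that shSYNCRIP 1 and 2 lay above all controls and shSYNCRIP 3 and 4 below all of them. The value of shSYNCRIP 2 came from 9 counts in the shallowest library. Its means were 80.4 ± 48.3 CPM (SD, n = 3) and 211.7 ± 254.8 CPM (n = 4). The fitted log2 fold change was -0.54 in limma-voom (95% CI -5.56 to 4.49, adjusted p = 0.992) and 1.39 in the quasi-likelihood test of edgeR (adjusted p = 0.983), so its direction also depended on the test. Without shSYNCRIP 3 the limma-voom value of miR-30c-5p was 0.75.

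The 3 remaining miR-30 members had their highest counts in shSYNCRIP 1. In shCTR miR-30a-5p was counted 0, 0 and 2 times, and in shSYNCRIP 9, 2, 1 and 0 times. For miR-30b-5p the counts were 1, 1 and 2 in shCTR against 6, 1, 1 and 0 in shSYNCRIP. For miR-30e-5p they were 0, 0 and 1 in shCTR against 4, 1, 0 and 0 in shSYNCRIP. All shCTR values of these 3 members were at or under 3 counts, and in shSYNCRIP only shSYNCRIP 1 exceeded that number. Without the filter on low counts, miR-30a-5p and miR-30e-5p met the study's criteria, a nominal limma-voom p under 0.1 and a fold change beyond 0.5 (read here as a log2 value), as higher (nominal p of 0.0193 and 0.0430, adjusted p = 0.361 and 0.414), as did 65 of all 406 miRNAs then tested, and these calls rest on at most 9 counts in a library. miR-30a-5p and miR-30e-5p differ by 1 base, and how the counting assigned reads that fit several miRNAs is not given in the sources used here, so their separate counts are uncertain.

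Relative to miR-26a-5p, the ratios of the 5 miR-30 members showed no difference that passed the test either. The log2 ratio of miR-30c-5p to miR-26a-5p was higher by 0.50 in shSYNCRIP (exact permutation p = 0.771, adjusted p = 0.943) and that of miR-30d-5p by 0.63 (exact permutation p = 0.943, adjusted p = 0.943). For miR-30a-5p, miR-30b-5p and miR-30e-5p the differences were 1.78, 0.97 and 1.32. The exact permutation p was 0.229, 0.257 and 0.200 (adjusted p = 0.514 each). These differences rest on the prior count added before taking logs, 2 counts on average and more in deeper libraries. Without shSYNCRIP 4 they were 2.70, 1.79 and 2.12, each with an exact permutation p of 0.1, the smallest that 3 libraries against 3 allow.

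**Figure D3:**
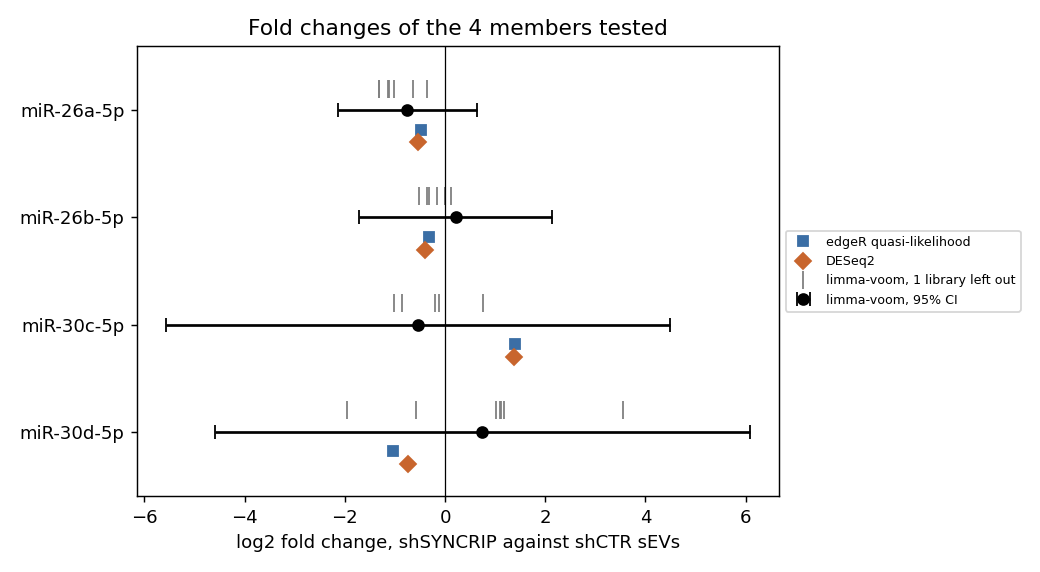
Log2 fold change of shSYNCRIP against shCTR sEVs for the 4 members that passed the filter, with limma-voom and its 95% CI in black, edgeR and DESeq2 as coloured markers, and limma-voom with each library left out as grey ticks (5 ticks for miR-30c-5p, which failed the filter in the other fits). Every interval holds 0, and for miR-26b-5p, miR-30c-5p and miR-30d-5p the markers of the tests lie on both sides of 0.

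By the study's criteria and with the filter on low counts, 0 of the 4 tested members were lower and 0 were higher. Over all 117 tested miRNAs 12.8% met these criteria as lower in shSYNCRIP and 5.13% as higher. With only 4 members tested, a count of 0 is near that background. No member reached an adjusted p under 0.05 with limma-voom, edgeR or DESeq2, beside 2.56% of all tested miRNAs in limma-voom, 0% in the quasi-likelihood test of edgeR and 2.56% in DESeq2. An unadjusted p under 0.05 was reached by 0 members, beside 10.3% of all tested miRNAs in limma-voom and 1.71% in the quasi-likelihood test of edgeR, which is near that background for 4 members. All 7 members overlapped between the groups in CPM, including the 3 that failed the filter. Of all tested miRNAs only 4.27% were lower without overlap and 2.56% were higher without overlap, so overlap of every member is near that background. The median log2 fold change of the 4 tested members was -0.16 in limma-voom, beside -0.07 over all 117, and -0.40 in the quasi-likelihood fit of edgeR, beside 0.09. Of the 16 miRNAs listed as other tumour-restraining miRNAs of hepatocytes, 9 were tested, 0 of them lower and 0 higher by these criteria, with a median log2 fold change of -1.16 in limma-voom and 0.01 in the quasi-likelihood fit of edgeR. CPM values are shares of the sequenced miRNAs, and in a bulk preparation fewer vesicles with a miRNA and fewer copies per vesicle cannot be told apart.

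The opposite arms of the hairpins gave the clearest contrast within the miR-30 family. The 3p arms of miR-30a and miR-30e are shown because they outnumbered the 5p arms, they share the seed in capitals, and they differ from each other by G18A (base of miR-30a-3p first).
miR-30a-3p: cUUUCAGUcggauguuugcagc
miR-30e-3p: cUUUCAGUcggauguuuacagc

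In shCTR miR-30e-3p was counted 5, 392 and 169 times, and in shSYNCRIP 265, 103, 502 and 0 times. Together with the 6 counts of miR-30e-5p, this placed 99.6% of the counts of the hairpin on its 3p arm. miR-30a-3p was counted 8, 503 and 12 times in shCTR against 25, 4, 21 and 0 times in shSYNCRIP, and held 97.6% of the pooled counts of its hairpin. That share was set mostly by shCTR 2. By library it was 100% in shCTR 1 and 2, 85.7% in shCTR 3 and 95.5% in shSYNCRIP 3. It was 73.5% in shSYNCRIP 1 (95% Clopper-Pearson interval 55.6% to 87.1%) and 66.7% in shSYNCRIP 2 (22.3% to 95.7%). The miR-30d hairpin was the reverse, with 739 counts of its 5p arm and 0 of its 3p arm. Of 142 hairpins with at least 100 counts over both arms, 42.3% had more 3p than 5p counts, so a surplus of the 3p arm was common in these libraries. Since the 3p arms of miR-30a and miR-30e differ at 1 base, reads could have been shared between them, and their separate counts are uncertain.

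Neither 3p arm met the study's criteria. The limma-voom log2 fold change was -1.82 for miR-30a-3p (95% CI -7.07 to 3.43, adjusted p = 0.992) and 0.50 for miR-30e-3p (95% CI -4.94 to 5.93, adjusted p = 0.992). Most counts of miR-30a-3p came from shCTR 2, the same library that held most of miR-30d-5p, whereas miR-30e-3p was spread over 5 libraries at more than 100 counts. In shSYNCRIP 4 both 3p arms were at 0, where miR-30d-5p had 208 counts. The 3p arms of the miR-26 hairpins (miR-26a-1-3p, miR-26a-2-3p and miR-26b-3p) and miR-30b-3p and miR-30d-3p had 0 counts in every library, miR-30c-1-3p reached at most 2 and miR-30c-2-3p at most 5. miR-1297 and miR-4465, which share the miR-26 seed, had 0 counts in every library.

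**Figure D4:**
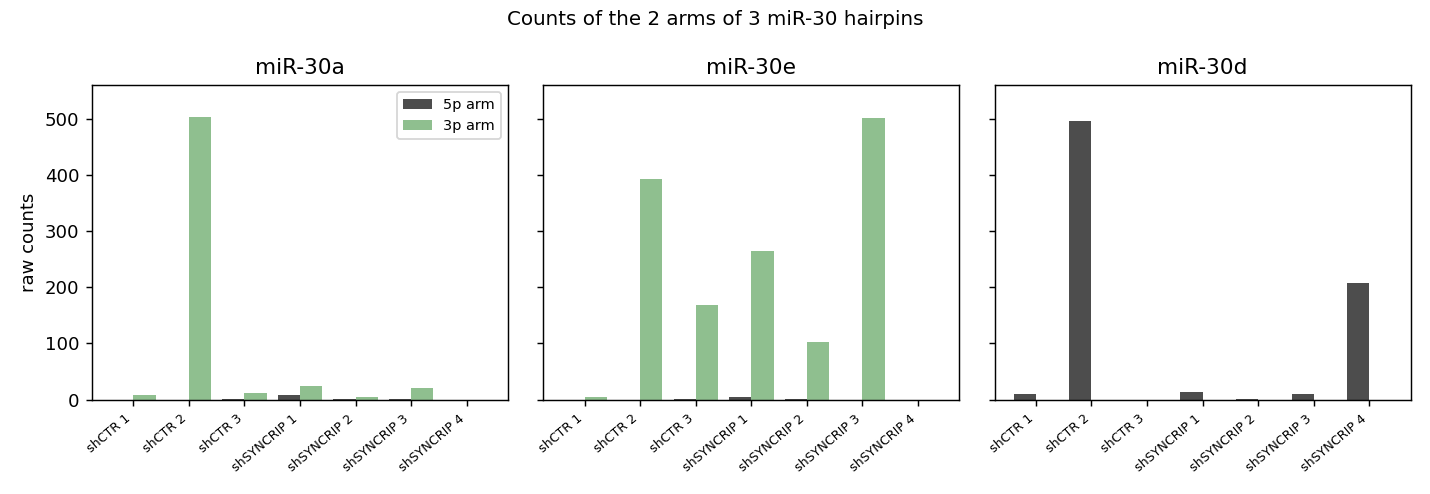
Raw counts of the 5p arm (dark) and the 3p arm (green) of the miR-30a, miR-30e and miR-30d hairpins in each library. miR-30e-3p reaches 502 counts where its 5p arm never passes 4, miR-30a-3p is high in shCTR 2 alone with 503, and miR-30d shows counts on its 5p arm only, up to 495 in shCTR 2.

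Among the other tested miRNAs, those most like the summed miR-26 level over the 7 libraries (Pearson's r of log2 CPM, 113 miRNAs compared) were miR-223-3p with 0.959, miR-126-5p with 0.945 and miR-423-5p with 0.909. These 3 were near their lowest in shSYNCRIP 2, with 0, 2 and 35 counts, and without that library r was 0.524, -0.235 and 0.007, so the likeness of miR-126-5p and miR-423-5p rests on it. For the summed miR-30 level the most alike were miR-501-3p with 0.860, miR-10a-5p with 0.690 and miR-411-5p with 0.574. Without shSYNCRIP 3 these values were 0.844, 0.933 and 0.444. miR-501-3p had 0 counts in shCTR 3, shSYNCRIP 2 and shSYNCRIP 3. miR-411-5p had 292 counts in shCTR 2 and at most 17 in any other library. All these correlations are descriptions over 7 libraries that share their scaling.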

How the data were processed

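Small RNA-seq of HepG2 sEVs was analysed in 3 shCTR and 4 shSYNCRIP libraries, grouped by the sample titles. The authors deposited raw counts per mature miRNA, made with NEXTFLEX libraries, adapter trimming and MiRDeep2 with miRBase sequences. Their processing notes name cutadapt, edgeR and GRCh38. The counts are not normalised. The titles call the replicates biological.

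From the counts, miRNAs were filtered with filterByExpr defaults (117 of 2656), scaled by TMM (factors 0.905 to 1.13) and fitted with limma-voom 3.58.1, as in the study's methods, in R 4.3.3. The quasi-likelihood test of edgeR 4.0.16 and DESeq2 1.42.0 were alternatives. For limma-voom and edgeR the Benjamini-Hochberg adjustment was over all tested miRNAs. DESeq2 used its own size factors and filtering and adjusted over the miRNAs it kept. Some miRNAs have no adjusted p in DESeq2. miR-30d-5p is among them with 739 counts in total, whereas miR-30c-5p with 138 has one. Why DESeq2 left these out was not tested. CPM are scaled to the TMM-adjusted total of the tested miRNAs, and log2 CPM used a prior count of 2, scaled in proportion to that total. Library depth, from 29863 to 388226, limits the precision of rare miRNAs. Motifs and figures used Python 3.11.15 and matplotlib 3.10.9. The fits were tested on simulated counts with known large changes, and a pass was required only where replicates varied little. That test therefore does not show how well the fits find changes at the wide spread of these libraries.

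The members and lists were chosen with earlier results of these data known. Named were all members, their other arms, miRNAs with the same seed, the 3 miRNAs most alike to each family, and listed markers and tumour-restraining miRNAs. Alternatives were other size factors, filters, tests, cutoffs and prior counts, a replicate block and left-out libraries. Target predictions, RT-qPCR, CLIP and meRIP were not analysed here.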

Additional observations from a re-analysis of the deposited data

Results flagged for a closer look

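In the 4 shSYNCRIP libraries, 12 quantities (the 7 members, both abundant 3p arms, both family sums and the miR-26 ratio) were searched for a library far from the others by Dixon's test, and 3 were singled out, all at shSYNCRIP 4, the library with 100 detected miRNAs. miR-30d-5p stood at 11.03 (log2 CPM) there, from 208 counts, above the other shSYNCRIP libraries. miR-30a-3p and miR-30e-3p each stood at 3.63, the value that a count of 0 takes, below the others. Chance singles out about 1 in 20 such groups where values are normally distributed and the groups are independent. Neither holds here, since the sums and the ratio reuse the members and both 3p arms stood at counts of 0. The 3 of 12 are therefore not compared with that rate.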

How the results depend on the processing

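The count of members meeting the study's criteria, 0, became 2 without a filter on low counts (miR-30a-5p, log2 fold change 3.08, nominal p 0.0193, and miR-30e-5p, 2.39, nominal p 0.0430, in limma-voom, from at most 9 counts in a library, beside 22 lower and 65 higher of all 406 miRNAs tested) and 1 with at least 1 CPM in 3 libraries (miR-30a-5p, beside 16 lower and 14 higher of 219). It ranged from 0 to 1 with a library left out, and was 1 without shSYNCRIP 2 and 4 together, in each case through miR-26a-5p (without shCTR 2 or shSYNCRIP 4, -1.32 each, and -1.14). Over all miRNAs 16 were lower and 2 higher of 135 without shCTR 2, 11 and 6 of 116 without shSYNCRIP 4, and 7 and 11 of 131 without both shSYNCRIP libraries. No alternative gave a member an adjusted p under 0.05.

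The limma-voom fold change of miR-26a-5p stayed negative under every alternative, from -1.32 to -0.37 with a library left out. That of miR-26b-5p (0.21) turned to -0.019 with DESeq2 size factors, -0.69 without a filter, -0.52 with at least 10 counts in every library, -0.20 with at least 1 CPM in 3 libraries, -0.32 in edgeR and -0.40 in DESeq2. That of miR-30c-5p (-0.54) turned to 1.39 in edgeR, 1.38 in DESeq2 and 0.63 with sample quality weights. That of miR-30d-5p (0.74) turned to -1.05 in edgeR, -0.75 in DESeq2, -0.18 with quality weights and -0.53 without shSYNCRIP 2 and 4 together. With a library left out these 3 ranged from -0.52 to 0.11, -1.02 to 0.75 and -1.95 to 3.56. The cause of these turns was not tested.

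The log2 ratio to miR-26a-5p turned to 1.17 for miR-26b-5p and -0.14 for miR-30d-5p without shSYNCRIP 2 and 4 together, and to -0.025 for miR-30c-5p with a prior count of 0.5. With a library left out the ratios of miR-26b-5p, miR-30c-5p and miR-30d-5p ranged from -0.91 to 0.52, -0.30 to 1.52 and -1.42 to 3.11. Those of miR-30a-5p, miR-30b-5p and miR-30e-5p ranged from 1.42 to 2.70, 0.69 to 1.79 and 1.08 to 2.12, and were 2.60, 0.98 and 1.93 with a prior count of 0.5.

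Libraries with the same replicate number did not deviate together (correlations over 117 miRNAs of -0.064, -0.033 and 0.088). With the wide spread within groups, these correlations cannot exclude preparation in pairs, and the titles do not say. The replicate block, whose group effect omits the unpaired shSYNCRIP 4, put miR-26a-5p at -0.99 (limma-voom adjusted p = 0.915) and miR-26b-5p at 0.35. It called 0 members, 7 miRNAs lower and 6 higher (against 15 and 6), and turned the miR-30d-5p ratio to -0.28. With a library left out the difference in summed level ranged from -0.96 to -0.42 for miR-26 and from -0.94 to 1.57 for miR-30. The miR-30 difference was negative without shCTR 1, shCTR 3, shSYNCRIP 1 or shSYNCRIP 4, and was -0.93 without shSYNCRIP 2 and 4 together. Depth limits the miR-30 members most, with 22 of 35 values at 3 counts or fewer.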
